A study of Mus musculus with 8 samples.

Results

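The Egr and Nr4a activity-regulated transcription factors and their close partners were taken as 10 genes, Egr1, Egr2, Egr3, Egr4, Nab1, Nab2, Nr4a1, Nr4a2, Nr4a3 and Npas4, out of 30210 gene names on the array. They were found as every non-control probe that carries one of these names, which gave 12 probes, 1 per gene except for Nab2 and Nr4a2 with 2 each. The samples were brains of mice kept without food for 17 h (fasted, 4 arrays) and brains of fed mice (4 arrays), each read on a single-colour Agilent expression array. The labels name no genotype, treatment or agent other than feeding, and strain, sex and age are not given in the sources used here. How many mice gave a sample is not given either, so the p-values below rest on the variation among these samples alone, and some of it may be technical.

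EGR proteins are zinc finger transcription factors that bind GC-rich sites, and NAB1 and NAB2 are corepressors that bind EGR proteins and restrain them, Nab2 being itself an EGR-induced gene. NR4A proteins are orphan nuclear receptors that bind DNA without a known endogenous hormone, and NPAS4 is a bHLH-PAS factor that is switched on by calcium entry in neurons. In brain most of these genes are immediate early genes. Their transcripts are made within minutes of synaptic activity or growth factor signals through factors such as CREB and SRF that are already in the nucleus, and they decay soon after.

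After 17 h without food the transcripts of 7 of the 10 genes were lower than in fed brain. Egr2 had the largest difference of the tested member probes, 2.08-fold lower in fasted brain, and Egr1, Egr4, Nab1, Nab2, Nr4a1 and Nr4a2 were between 1.12-fold and 1.38-fold lower. Npas4 gave a difference near 0 and Egr3 missed the threshold. Nr4a3 was too dim to test on all 8 arrays. No member probe passed as higher in fasted brain.

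Signals are given as scaled log2 signal, the log2 of the scanner's processed signal minus the 75th percentile of the same array, so that 0 stands for that percentile and differences are fasted minus fed. Probes differ in how brightly they bind, so a level is compared between arrays and never between probes. Of the 12 member probes 10 were well above background on at least 4 of the 8 arrays and entered the test, a limma fit over 26066 probes with Benjamini-Hochberg adjustment over all of them and a threshold of 0.05. Of these 10 probes 7 passed as lower in fasted brain, against 8.55% of all probes tested, and 0 passed as higher, against 8.4% of all probes. At an unadjusted p under 0.05 the counts were 9 lower and 0 higher, against 16.9% and 15.9% of all probes. All 10 differences were negative, with a median of -0.36 against -0.01 over all probes. In 8 of the 10 the 4 fasted values lay below the 4 fed values, which was so for 12.5% of all probes.

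**Figure D1:**
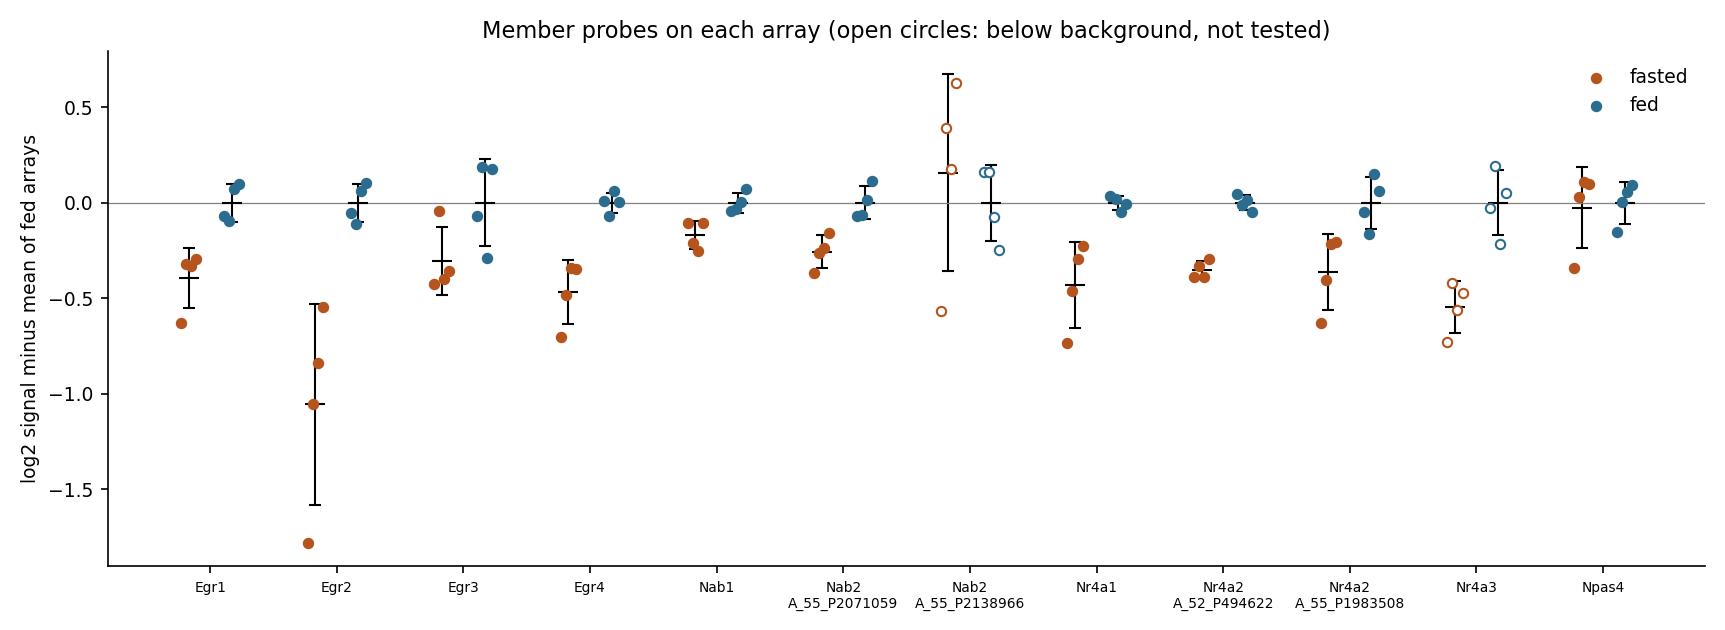
Scaled log2 signal of each of the 12 member probes on each array, minus the mean of the 4 fed arrays of that probe, with fasted arrays left of fed arrays; bars show mean and SD (n = 4), and open circles are probes not well above background. Egr2 has the widest gap, with a mean difference of -1.05, and the fasted and fed points of Npas4 overlap, with a mean difference of -0.03.

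The 8 arrays lay on 2 slides, each with 2 fasted and 2 fed arrays, and arrays of a group correlated with each other at 0.991 to 0.996 over probes. The 75th percentile was 1651 to 1944 intensity units, each array had 24567 to 27220 of 39429 probes well above background, and no spot was saturated. On each slide the fasted samples took positions 1 and 3 and the fed samples 2 and 4, so position and fasting cannot be told apart. In brain tissue, fewer cells of a type and less RNA per cell cannot be told apart either. With 4 arrays a group, precision is limited by their number.

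Genes of this kind are known to carry binding sites for CREB, SRF and EGR proteins near their starts. RefSeq windows of 300 bases around the gene start (250 bases before it to 50 after it, assembly GRCm38.p6) were read for 8 of the 10 genes, those other than Egr1 and Egr3. The windows were searched on both strands for the core of the cyclic AMP response element (CRE) bound by CREB, TGACG, the full CRE, TGACGTCA (which contains the core), the CArG box bound by SRF, the EGR site GCGNGGGCG and the NR4A site AAAGGTCA. Of 32851 such windows of mouse genes 20.8% held at least 1 core and 1.03% held 3 or more. The full CRE was in 1.79%, the CArG box in 1.63%, the EGR site in 5.55% and the NR4A site in 1.51%. A match describes the letters only, and no match says only that these letters are not in the window. Cores were found in 7 of the 8 genes' windows, and none of the 8 held a full CRE or an NR4A site.

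**Figure D2:**
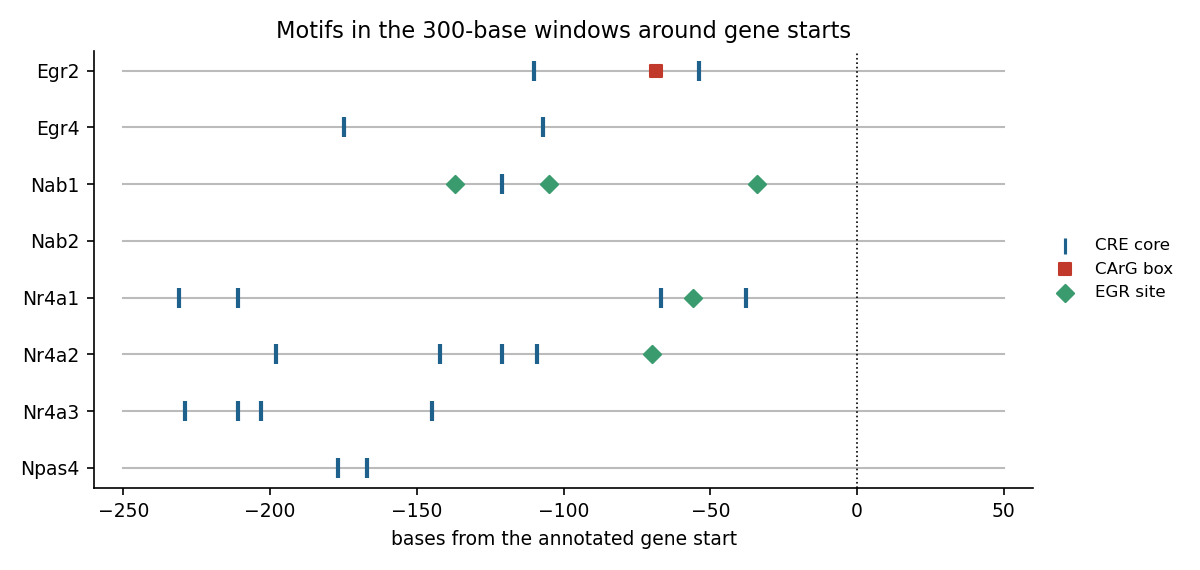
Position of each motif match along the 300-base promoter window of the 8 member genes with a window, in bases from the gene start, with 1 marker per match. Nr4a1, Nr4a2 and Nr4a3 have 4 CRE cores each, Nab1 has 3 EGR sites and Nab2 has no match.

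Egr1 encodes the zinc finger factor also called Zif268, widely used as a marker of recent neuronal activity. Its probe (A_51_P367866, transcript NM_007913) lies at chr18:35024395-35024454 on the plus strand in mm9, the build of the array design. Scaled log2 signal of Egr1 was 2.97, 3.28, 3.27 and 3.31 on the 4 fasted arrays, against 3.53, 3.50, 3.67 and 3.70 on the 4 fed arrays. Fasted replicate 1 was the lowest, and the groups did not overlap. The means were 3.21 ± 0.16 (fasted) and 3.60 ± 0.10 (fed; SD over 4 arrays). Egr1 was 1.31-fold lower in fasted brain (log2 difference -0.39, 95% interval -0.59 to -0.20; limma adjusted p = 0.0187). The difference was -0.39 within slide 1 and -0.40 within slide 2.

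Egr2, also called Krox20, drives myelination in Schwann cells and is induced by activity in neurons. Its probe (A_55_P2033362, NM_010118) lies at chr10:67004798-67004857 on the plus strand in mm9. The scanner's processed signal, in intensity units, was 698, 999.55, 1322 and 1522 on the fasted arrays, against 1957, 1941, 2171 and 2363 on the fed arrays. On the scaled log2 scale Egr2 was -1.48, -0.76, -0.54 and -0.25 in fasted brain, against 0.25, 0.19, 0.36 and 0.40 in fed brain. The groups were apart, and the fasted arrays were spread far more widely than the fed ones, with fasted replicate 1 at the bottom. The means were -0.75 ± 0.53 (fasted) and 0.30 ± 0.10 (fed; SD over 4 arrays), a log2 difference of -1.05 ± 0.23 (SE; limma adjusted p = 0.0206). Without fasted replicate 1 the difference of Egr2 was -0.81 and still passed (adjusted p = 0.0126). It missed the threshold without fasted replicate 2 (adjusted p = 0.0509) and without fed replicate 4 (adjusted p = 0.0521), with differences of -1.05 and -1.02.

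The stretch before the Egr2 gene start, chr10:67537740-67537869 on the plus strand of GRCm38.p6, is shown because it holds both kinds of stimulus-response site. Capitals mark, in order, a CRE core, the CArG box and another core. A core together with a CArG box was present in 0.244% of all windows. RefSeq gives 5 start windows for Egr2, of which 3 held 2 cores and the CArG box, 1 held the CArG box only and 1 held neither; the stretch comes from 1 of the first kind.
Egr2: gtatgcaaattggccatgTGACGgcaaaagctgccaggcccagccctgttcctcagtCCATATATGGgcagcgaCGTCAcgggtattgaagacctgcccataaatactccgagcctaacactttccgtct

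Egr4 encodes a short-lived neuronal member of the family, measured by a probe (A_51_P270426, NM_020596) at chr6:85461153-85461212 on the minus strand in mm9. Egr4 had scaled log2 signals of 1.96, 2.18, 2.32 and 2.31 on the fasted arrays, against 2.67, 2.59, 2.72 and 2.66 on the fed arrays. All fasted values were lower than all fed values, and the fed arrays lay within a narrow band. The means were 2.19 ± 0.17 (fasted) and 2.66 ± 0.05 (fed; SD over 4 arrays). Egr4 was 1.38-fold lower (log2 difference -0.47 ± 0.08, SE; limma adjusted p = 0.00879), and it passed in 17 of the 17 alternatives that used both slides. Its promoter stretch, chr6:85513590-85513774 on the minus strand of GRCm38.p6, is shown beside that of Egr2 for its 2 cores, in capitals, with no CArG box in the window.
Egr4: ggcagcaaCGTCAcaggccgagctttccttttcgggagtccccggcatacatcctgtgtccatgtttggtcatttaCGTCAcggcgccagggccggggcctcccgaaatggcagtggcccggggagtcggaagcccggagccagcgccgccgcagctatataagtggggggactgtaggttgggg

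Egr3, which in muscle is needed for the development of stretch receptors, had a difference in the same direction that did not pass. The probe (A_55_P2032412, NM_018781) lies at chr14:70479222-70479281 on the plus strand in mm9. Egr3 had scaled log2 signals of -4.19, -3.81, -4.17 and -4.12 in fasted brain, against -3.84, -3.58, -4.06 and -3.59 in fed brain. The groups overlapped, since fasted replicate 2 lay above fed replicates 1 and 3. The log2 difference was -0.31, with a 95% interval of -0.60 to -0.01, and it missed the threshold over all probes (limma adjusted p = 0.141). The Egr3 probe was dim, at 102 to 149 intensity units, though well above background on every array. With normexp background correction its difference was -0.19 (limma adjusted p = 0.206).

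The corepressors were lower by smaller amounts. Nab1 (A_52_P318438, NM_008667, at chr1:52515132-52515191 on the minus strand in mm9) gave -0.73, -0.84, -0.88 and -0.73 in scaled log2 signal on the fasted arrays, against -0.67, -0.66, -0.62 and -0.55 on the fed arrays. The groups did not overlap, but the highest fasted arrays lay close to the lowest fed array. The log2 difference of Nab1 was -0.17 ± 0.05 (SE; limma adjusted p = 0.0452), 1.12-fold lower. With the replicate number as a block the adjusted p was 0.0589, and leaving out any single array also ended the call (adjusted p = 0.0565 to 0.106, with differences of -0.19 to -0.14). Nab1 passed in 4 of the 17 alternatives that used both slides. The stretch before the Nab1 start, chr1:52500449-52500598 on the minus strand of GRCm38.p6, is shown for its 3 EGR sites, in capitals. It also holds a CRE core at -123, not marked here. Of all windows 0.195% held 3 or more EGR sites.
Nab1: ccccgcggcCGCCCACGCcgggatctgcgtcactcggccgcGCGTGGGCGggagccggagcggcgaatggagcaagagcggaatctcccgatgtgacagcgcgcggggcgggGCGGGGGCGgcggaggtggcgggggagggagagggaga

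Nab2 was measured by a pair of probes for different RefSeq transcripts. The probe A_55_P2071059 (NM_008668, at chr10:127098009-127098068 on the minus strand in mm9) gave 1.38, 1.48, 1.51 and 1.58 in scaled log2 signal on the fasted arrays, against 1.68, 1.68, 1.76 and 1.86 on the fed arrays. Every fasted array was below every fed array. The means were 1.49 ± 0.09 (fasted) and 1.74 ± 0.09 (fed; SD over 4 arrays), and the log2 difference was -0.26 ± 0.06 (SE; limma adjusted p = 0.0226), 1.20-fold lower. The call was lost without fasted replicate 1 (adjusted p = 0.0538), without fasted replicate 2 (0.0566) and without fed replicate 3 (0.0537), with differences of -0.22, -0.26 and -0.25, and also when no filter was set on dim probes (0.0547). The probe A_55_P2138966 for NM_001122895 (chr10:127101413-127101472, minus strand, mm9) was well above background on 0 of 8 arrays and was not tested. Its measured values were -5.92 to -4.72 in fasted and -5.60 to -5.19 in fed brain. The Nab2 promoter window held none of the motifs searched.

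Nr4a1, also called Nur77, is the NR4A receptor induced by a wide range of stimuli, stress hormones and cyclic AMP among them. Its probe (A_51_P239654, NM_010444) lies at chr15:101105071-101105130 on the plus strand in mm9. The scaled log2 signal of Nr4a1 was 3.40, 3.67, 3.84 and 3.91 on the fasted arrays, against 4.17, 4.15, 4.09 and 4.13 on the fed arrays. The fed arrays were nearly equal, the fasted arrays were spread below them, and the groups did not overlap. The SD was 0.23 in fasted and 0.04 in fed brain (n = 4 each). Nr4a1 was 1.35-fold lower in fasted brain (log2 difference -0.43, 95% interval -0.67 to -0.19; limma adjusted p = 0.0265). The difference was -0.63 within slide 1 and -0.23 within slide 2. With the replicate number as a block the adjusted p was 0.0524, and with no filter on dim probes it was 0.0591. The call was also lost without fasted replicate 2 (adjusted p = 0.0656) and without fed replicates 1, 2 or 4 (0.0634, 0.0651 and 0.0585), with differences of -0.42, -0.42, -0.42 and -0.43.

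Nr4a2, also called Nurr1, is required for midbrain dopamine neurons and is also induced by activity in forebrain. Its probe A_52_P494622 (NM_013613, at chr2:56960699-56960758 on the minus strand in mm9) gave 2.07, 2.13, 2.07 and 2.16 in scaled log2 signal on the fasted arrays, against 2.50, 2.45, 2.47 and 2.41 on the fed arrays. Both groups were tight and well apart. The log2 difference was -0.35 ± 0.04 (SE; limma adjusted p = 0.00169), 1.28-fold lower, and its adjusted p was the smallest of the member probes. Over the 17 alternatives with both slides that adjusted p ran between 0.000217 and 0.0175. The probe A_55_P1983508 (chr2:56959637-56959696, minus strand, mm9) gave -0.48, -0.26, -0.07 and -0.06 in fasted brain, against 0.10, -0.02, 0.30 and 0.21 in fed brain. These groups did not overlap but nearly met. The difference of this probe, -0.36 ± 0.11 (SE), missed the threshold (limma adjusted p = 0.0536) and passed it with the replicate number as a block (0.0298). The probes thus gave differences of nearly the same size, with a larger spread on the second.

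Nr4a3, also called Nor1, was measured by a single probe (A_51_P128397, NM_015743) repeated on 10 spots, while other member probes had 1 spot each. The array design places this probe within chr4:48080690-48083876 on the plus strand in mm9. Its scaled log2 signal was -5.63, -5.31, -5.46 and -5.37 in fasted brain, against -4.92, -4.71, -5.11 and -4.84 in fed brain. The fasted values lay below the fed values, but on 0 of 8 arrays was the probe well above background, so no fold change and no test are given.

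The promoter stretches of the 3 NR4A genes are shown together because each window holds 4 CRE cores, marked in capitals. They are chr15:101266596-101266845 on the plus strand for Nr4a1, chr2:57124094-57124213 on the minus strand for Nr4a2 and chr4:48045065-48045174 on the plus strand for Nr4a3, in GRCm38.p6. In Nr4a1 the cores begin at -233, -213, -69 and -40 from the gene start, and in Nr4a3 at -231, -213, -205 and -147. The windows of Nr4a1 and Nr4a2 also hold 1 EGR site each, at -60 and -74. That of Nr4a1 is not marked here, and that of Nr4a2 lies outside the stretch shown.
Nr4a1: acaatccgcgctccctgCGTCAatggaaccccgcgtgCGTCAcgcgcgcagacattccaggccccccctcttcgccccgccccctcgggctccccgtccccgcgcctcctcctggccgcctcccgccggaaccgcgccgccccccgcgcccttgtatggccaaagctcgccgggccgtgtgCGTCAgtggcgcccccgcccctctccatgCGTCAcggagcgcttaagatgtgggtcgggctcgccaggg
Nr4a2: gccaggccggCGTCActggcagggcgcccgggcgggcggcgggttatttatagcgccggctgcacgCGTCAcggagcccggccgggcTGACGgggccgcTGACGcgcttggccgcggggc
Nr4a3: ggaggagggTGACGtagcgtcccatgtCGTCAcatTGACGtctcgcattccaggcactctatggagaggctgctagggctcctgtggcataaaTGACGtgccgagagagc

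Npas4 controls genes that shape inhibitory synapses on active neurons. Its probe (A_55_P1975215, NM_153553) lies at chr19:4984356-4984415 on the minus strand in mm9. Scaled log2 signal of Npas4 was 0.85, 1.22, 1.29 and 1.28 on the fasted arrays, against 1.03, 1.19, 1.24 and 1.28 on the fed arrays. The groups overlapped throughout, with the lowest value on fasted replicate 1. The means were 1.16 ± 0.21 (fasted) and 1.19 ± 0.11 (fed; SD over 4 arrays). The log2 difference was -0.03, with a 95% interval of -0.27 to 0.22 (limma adjusted p = 0.895), and it turned positive, 0.08, without fasted replicate 1. The interval of Npas4 does not reach the estimates of Egr1, Egr2, Egr4, Nr4a1 or Nr4a2, but the difference between genes was not tested. The promoter stretch of Npas4, chr19:4989972-4990171 on the minus strand of GRCm38.p6, is shown because its 2 cores, in capitals, stand close together.
Npas4: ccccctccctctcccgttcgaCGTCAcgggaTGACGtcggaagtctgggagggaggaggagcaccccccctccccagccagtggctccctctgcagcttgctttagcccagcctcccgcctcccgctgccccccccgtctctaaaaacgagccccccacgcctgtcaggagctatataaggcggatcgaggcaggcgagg

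**Figure D3:**
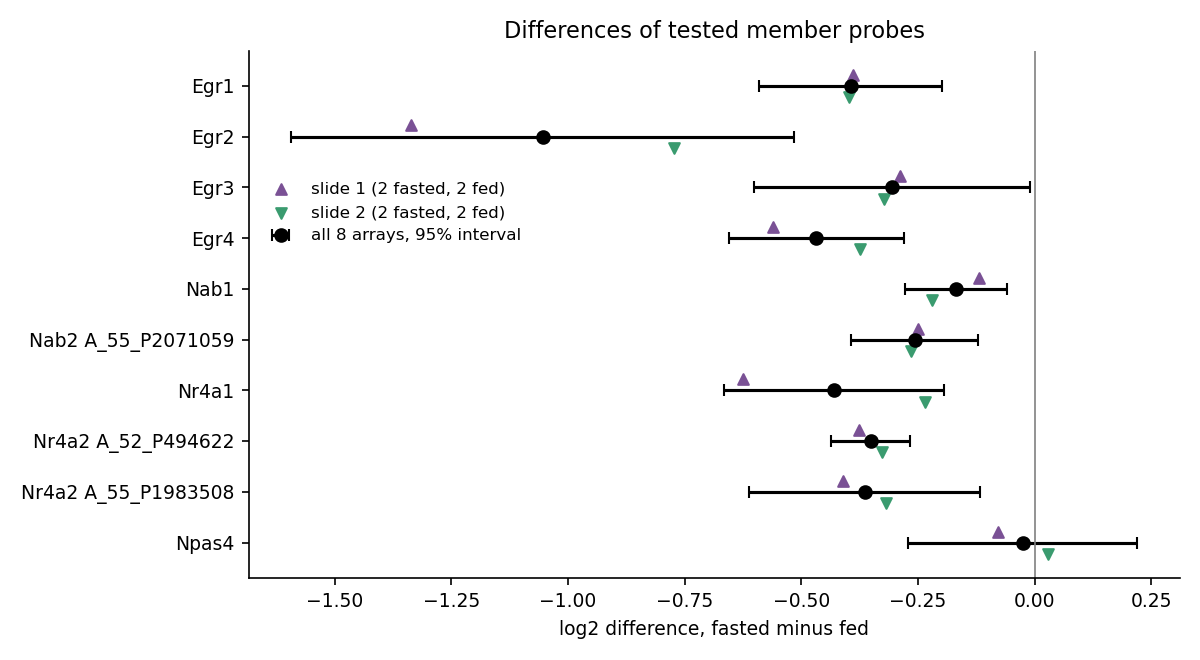
Log2 difference, fasted minus fed, of the 10 tested member probes, with the 95% interval from all 8 arrays (black) and the differences within slide 1 and within slide 2 (triangles, 2 fasted and 2 fed arrays each). All intervals but that of Npas4 lie below 0, and Nr4a1 has -0.63 within slide 1 and -0.23 within slide 2.

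The fasted arrays differed among themselves. Fasted replicate 1 was the lowest of its group for 8 of the 10 tested probes, with a median deviation from the fasted mean of -0.24, while the median deviation of all probes on that array was -0.01. Fasted replicate 4 was the highest of its group for 6 of the 10. Among fed arrays, replicate 2 was the lowest for 4 probes and replicate 4 the highest for 5. Without fasted replicate 1 the count of member probes that passed was 5, and without fasted replicate 2 it was 3. It was 4 without fed replicate 4 and 5 without fed replicate 1, 2 or 3. All differences but that of Npas4 stayed negative.

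**Figure D4:**
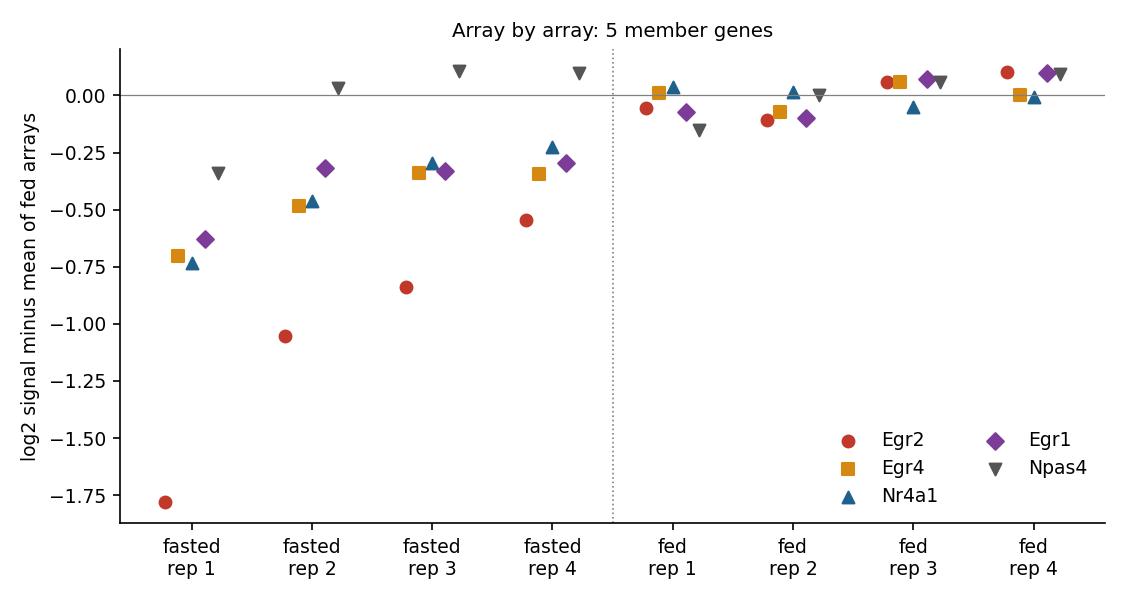
Scaled log2 signal of Egr2, Egr4, Nr4a1, Egr1 and Npas4 on each of the 8 arrays (fasted left, fed right), minus the mean of the 4 fed arrays of the same gene. Fasted replicate 1 is the lowest array for all 5 genes, and for Npas4 the other fasted arrays lie among the fed ones.

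Genes with the pattern most like a member were found by the root mean square difference over the 8 arrays, after each gene was centred on its own mean. Closest to Egr2 were Wfdc17 (0.228 log2 units), a secreted protein of activated macrophages, Tnfrsf25 (0.244), a receptor of the TNF family, and Noxred1 (0.277), against a root mean square of 0.621 for Egr2 itself. The Wfdc17 signal was low, at -5.35 to -4.29 in fasted and -4.19 to -3.76 in fed brain on the scaled log2 scale. The Wfdc17 probe was among those kept as well above background on at least 4 of the 8 arrays. Closest to Nr4a1 were Sertad1 (0.0681), Fos (0.0712), the classic immediate early gene, and Qrfpr (0.0869), the receptor of a feeding-related peptide, against 0.256 for Nr4a1 itself. Fos had a log2 difference of -0.46 ± 0.14 (SE; limma adjusted p = 0.0547). Closest to Npas4 were Usp42 (0.0714), Lrrk1 (0.0740) and Fli1 (0.0743), against 0.147 for Npas4 itself.

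Genes around the members were read from lists, each gene by its brightest kept probe. Over the 16107 genes tested, 8.93% passed as lower in fasted brain and 9.44% as higher, with a median log2 difference of -0.01. At an unadjusted p under 0.05 the shares of all genes were 17% lower and 17.4% higher. Of 24 factors and kinases that relay stimuli to these promoters, 2 rose and 1 fell, with a median of 0.01. Srf, which binds the CArG box, fell by 0.30 on the log2 scale (limma adjusted p = 0.00206), while its other probe gave 0.07 (adjusted p = 0.692). Camk4, a nuclear calcium-dependent kinase, rose by 0.30 (adjusted p = 0.00314) with 0.18 and 0.20 on other probes that did not pass, and Mrtfa, an SRF coactivator, rose by 0.24 (adjusted p = 0.0100), with 0.08 on another probe that did not. Rps6ka2, a kinase of the ERK pathway, had a difference of -0.15 (adjusted p = 0.0505). Of 7 binding partners 1 fell, the retinoid receptor Rxrg, by 0.22 (adjusted p = 0.00797), while its other probe gave -0.10 and did not pass (adjusted p = 0.121). The other named partners were Rxra, with -0.32 (adjusted p = 0.378), and the PAS partners Arnt, with -0.04, and Arnt2, with 0.09, none of which passed. Another probe of Arnt gave -0.33 (adjusted p = 0.0353).

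Of 14 tested genes reported as EGR targets 2 fell and 0 rose, with a median of -0.07 and, at an unadjusted p under 0.05 in limma, 4 lower and 1 higher, against 17% and 17.4% of all genes. Arc, a synaptic protein whose messenger RNA moves into active dendrites, fell by 0.60 (limma adjusted p = 0.0142), and Mag, a myelin protein, by 0.27 (adjusted p = 0.00631). Ache (0.12) and Syn2 (-0.10) did not pass. Of 9 genes reported as NR4A targets 1 rose and 0 fell, with a median of 0.05 and 1 in each direction at an unadjusted p under 0.05, against the same shares of all genes. The one that rose was Ddc, the decarboxylase that makes dopamine and serotonin, which rose by 0.80 (adjusted p = 0.00154) and by 0.62 on its other probe (adjusted p = 0.0240). Pomc gave -0.26 (adjusted p = 0.0531), Slc18a2 gave 0.14 and Ret gave 0.11, and none of the 3 passed. Of 6 genes reported as NPAS4 targets 2 fell and 0 rose, against 8.93% and 9.44% of all genes, with a median of -0.13. At an unadjusted p under 0.05 in limma 2 were lower and 0 higher, against 17% and 17.4% of all genes. Those that fell were the growth factor gene Bdnf, by 0.30 (adjusted p = 0.0341), and the prohormone convertase gene Pcsk1, by 0.28 (adjusted p = 0.0275). The scaffold gene Homer1 gave -0.06 on its brightest probe (adjusted p = 0.545) and -0.91 on another (adjusted p = 0.00446), and its 3 remaining probes gave -0.26, -0.25 and -0.13 and did not pass (adjusted p = 0.0865, 0.0631 and 0.267). Nptx2 gave -0.19 (adjusted p = 0.174) and -0.26 (adjusted p = 0.0161).

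Of 17 tested immediate early transcription factors of other families 6 fell and 3 rose, against 8.93% and 9.44% of all genes. Their median was -0.21, against -0.01 over all genes. At an unadjusted p under 0.05 in limma 8 were lower and 4 higher, against 17% and 17.4% of all genes. The AP-1 genes Fosb and Fosl2 fell by 0.81 (limma adjusted p = 0.00186) and 0.72 (adjusted p = 0.00974), and the zinc finger gene Klf10 by 0.55 (adjusted p = 0.00999), while Klf6 rose by 0.23 (adjusted p = 0.00998). The others that passed, named here after their values were seen, were Atf3, Klf4 and Nfil3, which fell by 0.82, 0.24 and 0.32, and Btg2 and Maff, which rose by 0.70 and 0.71. Ier5, also named after its values were seen, gave -0.21 on its brightest probe and did not pass (adjusted p = 0.0850). Its other probe gave -0.46 (adjusted p = 0.00335). Of 11 tested genes near the members in family 1 fell, Nr5a1, by 0.15 (adjusted p = 0.0433). Npas2 (0.16), Npas3 (-0.19) and Sim2 (-0.13) did not pass.

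**Figure D5:**
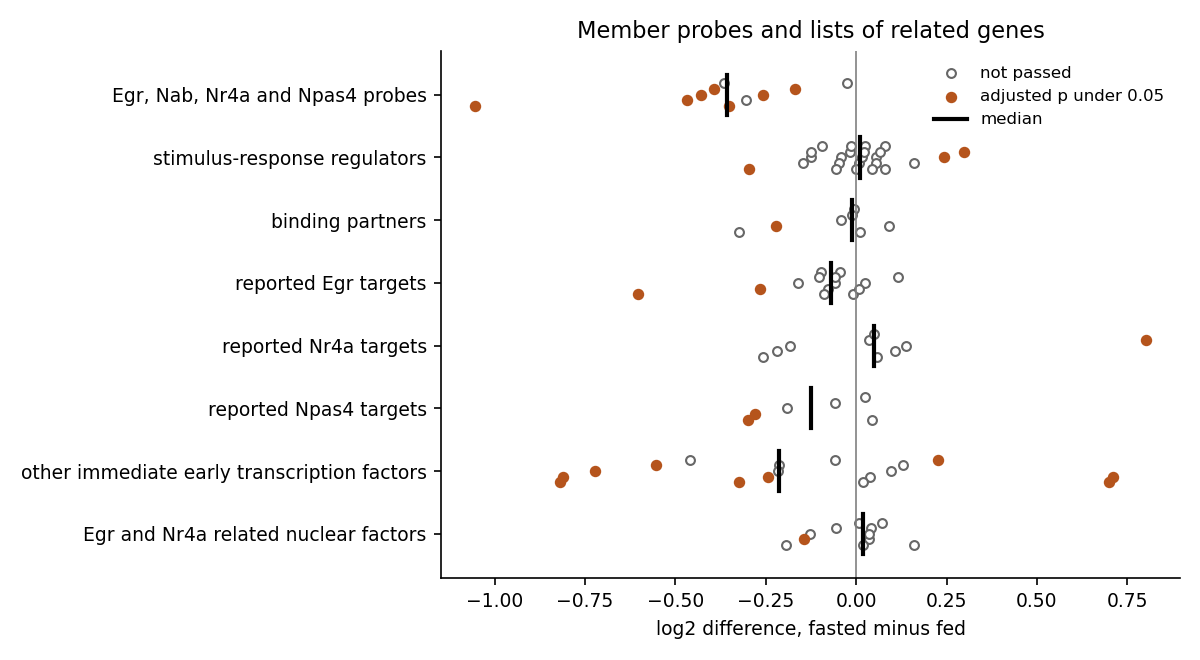
Log2 difference, fasted minus fed, of the 10 tested member probes (top line) and of each tested gene of the related lists by its brightest kept probe; filled points passed the threshold and black bars are medians. The other immediate early transcription factors have a median of -0.21 and hold genes on both sides of 0, and the medians of the other lists of related genes lie between -0.13 and 0.05.

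Cell type markers were read in the same way. All 8 neuron markers were tested and 0 passed the threshold, with 2 higher and 0 lower at an unadjusted p under 0.05 in the limma fit, against 17.4% and 17% of all genes. Their median difference was 0.07, and their summed level was 172 to 180 in fasted and 165 to 173 in fed brain, in multiples of each array's 75th percentile. Of 6 microglia markers 4 fell and 0 rose, against 8.93% and 9.44% of all genes, with a median of -0.30. Those that fell were Tmem119, Aif1, P2ry12 and Csf1r, by 0.42, 0.54, 0.43 and 0.17. The summed level of the 6 markers was 17.6 to 20.1 in fasted and 20.9 to 22.7 in fed brain. Other probes of Csf1r gave -0.17 (limma adjusted p = 0.0110) and -0.08 (0.501). Of 6 astrocyte markers Slc1a2 rose by 0.32, with 0.26 and 0.04 on other probes of which only the first passed, and Aqp4 fell by 0.41, with -0.60 on another probe that also passed. Aldh1l1 gave 0.13 on its brightest probe (limma adjusted p = 0.268) and -0.37 on another (0.00396). Of the other marker lists reported here, 1 of 6 endothelial and pericyte genes and 1 of 4 choroid plexus genes rose. Lower were 1 of 5 meningeal genes and 1 of 6 genes of cortex and hippocampus. Of 5 genes of midbrain dopamine neurons 1 rose, which was Ddc. Over all genes 9.44% passed as higher and 8.93% as lower. In cortex and hippocampus Rorb fell by 0.20 (limma adjusted p = 0.0200), with -0.17 on another probe (0.0531). Tbr1 gave 0.10 on its brightest probe (limma adjusted p = 0.0807) and 0.42 on another (0.00313). None of 4 blood, 7 striatum, 2 cerebellum and 2 pituitary genes passed in limma, and at an unadjusted p under 0.05 there were 0, 1, 0 and 1 of them, both lower, against 17% of all genes. The pituitary gene counted there was Pomc, by the same probe that was read among the reported NR4A targets. Of the pituitary markers Gh, Prl and Tshb were not among the tested genes, nor were Gabra6 and Cbln3 of cerebellum. The part of these markers in the lower member signals was not tested.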

How the data were processed

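Mouse brain was measured on 8 single-colour Agilent arrays, 4 fasted and 4 fed, grouped and numbered by the sample titles. Each spot's processed signal is an intensity in the deposited scanner files, made with Feature Extraction 11.0.1.1, per the file headers, while the submitters' processing notes name version 10.10.1.1. A ratio on a linear scale is what the deposited series table holds for each spot. It matches the scaled scanner signal after that is divided by a constant per spot. The SD over arrays of their log2 difference had a median of 0.000179 over non-control spots. The scale and direction of the ratio are thus known, and the baseline behind the constant is unknown. The column medians of the series table were 0.970 to 1.02, and it served as an alternative.

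Signals were taken to log2 and the 75th percentile of each array was subtracted. Spots that were controls or carried an outlier flag (128 to 217 an array) were dropped, and a probe with several spots took their mean. Probes were kept when well above background on at least 4 of 8 arrays, whatever the group, which kept 26066 of 39429. Accessions of 27427 probes matched RefSeq, which was used for names. Probe coordinates come from the array design (mm9), and which part of a transcript a probe covers was not analysed here. Promoter sequences are RefSeq's, in GRCm38.p6.

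The test of fasted against fed brain was limma's moderated test, two-sided (limma 3.58.1, R 4.3.3), fitted and adjusted over all kept probes, and the procedure was tested on simulated data. The members and the lists of related genes were chosen with earlier results of these data known. Named genes are all members, up to 4 genes of each related list with the smallest p, and the 3 genes most like Egr2, Nr4a1 and Npas4 over the arrays, genes named outside this being marked as such; of the cell type markers only those that passed or that define a type are named. The oligodendrocyte marker list is not reported here. Slide as a batch gave 220 of 26066 probes that passed. Same-numbered fasted and fed arrays deviated together, with correlations of 0.18 to 0.29 in the 4 pairs, above 0.1 in each, and the replicate block is given where it changes a call. Differently numbered arrays gave 0.05 to 0.27 within a slide, and fasted replicate 2 with fed replicate 1 (0.27) exceeded the pair numbered 1 (0.18); between slides the values were -0.39 to -0.10. Pairing, slide and neighbouring position therefore cannot be told apart. The alternatives were another background correction, other scalings, other filters, slide or replicate blocks, single slides, an intensity trend and leaving out each array.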

Additional observations from a re-analysis of the deposited data

Results flagged for a closer look

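Egr1 on fasted replicate 1 had a scaled log2 signal of 2.97, while fasted replicates 2 to 4 averaged 3.29. It was marked because its gap to the nearest fasted array was 0.892 of the range of the group, above Dixon's 95% critical value for 4 samples. Of 24 groups of 4 values checked over the 12 member probes 1 was marked, and chance marks about 1 in 20. Without this array the difference of Egr1 was -0.32 and still passed (limma adjusted p = 0.0230).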

How the results depend on the processing

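Of 190 single-probe differences under 19 alternatives 187 kept their sign. The 3 that changed were all of Npas4, at 0.027 within slide 2, 0.079 without fasted replicate 1 and 0.0055 without fed replicate 4; leaving out 1 array gave Npas4 differences of -0.077 to 0.079. Of the calls 39 were lost, 14 of them within single slides, and 4 were gained. With 2 arrays of each group, limma called 0 member probes and 0 probes of the whole array within slide 1 and within slide 2, where 5763 and 4021 probes had an unadjusted p under 0.05. The 4417 probes called over the whole array became 2846 with normexp background correction, 2605 with no filter and 2782 to 3788 on leaving out 1 array. The 7 member probes lower in fasted brain became 3 to 6 on leaving out 1 array, lowest without fasted replicate 2, and 5 with no filter. With the replicate block 3957 probes passed over the whole array and 6 member probes were lower, with calls changed for Nr4a1, Nab1 and a Nr4a2 probe as given above and for no other member. Where calls were lost with all 8 arrays the cause was not tested, and the other losses came with fewer arrays. Signal near background left Nr4a3 and a Nab2 probe without a test.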

Other observations

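The SD of the fasted arrays was larger than that of the fed arrays for 9 of the 10 tested member probes, all but Egr3, with a median ratio of 1.53. Over all 26066 kept probes it was larger for 50.8%, with a median ratio of 1.01. Nr4a1 (SD 0.23 in fasted and 0.04 in fed brain) and Egr2 (0.53 and 0.10) had the widest contrast. Fasted replicate 1 was the lowest fasted array for most of the member probes, and the difference in spread was not tested.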
